A study of Mus musculus with 20 samples.

Results

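The effect of rosuvastatin on liver mRNA was examined over the whole of a 2-factor design, by setting all 10 mice that received the statin against all 10 that did not. The 20 samples are all the samples of the series. They are livers of wild-type (WT) mice with diet-induced obesity (DIO) in 4 groups of 5 mice: vehicle, rosuvastatin, GGOH, and rosuvastatin with GGOH, called here the combination. Rosuvastatin and combination mice formed the side with statin, vehicle and GGOH mice the side without it, and GGOH was kept as a factor, so that the difference reported is the mean of the statin effect without GGOH and the statin effect with GGOH. Every mouse was wild type and obese by diet, so no lean animals entered the comparison. The labels used here give no dose, route, duration, diet, strain, sex or age. They number the livers within a group without saying that each came from its own animal. Each liver was taken as 1 mouse, and p-values measure only the spread between these samples, which may be technical.

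Rosuvastatin, a statin, blocks the formation of mevalonate. Mevalonate is built up to isopentenyl and then to farnesyl diphosphate, from which the pathway branches to squalene and cholesterol, to geranylgeranyl diphosphate for the lipid anchors of small GTPases, and to ubiquinone and dolichol. GGOH (geranylgeraniol) is the alcohol of the geranylgeranyl group. In hepatocytes a fall in sterols in the endoplasmic reticulum releases the transcription factor SREBP-2, encoded by Srebf2, which binds promoters of nearly every gene of cholesterol synthesis, often beside the factor NF-Y.

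With rosuvastatin, genes of cholesterol synthesis were higher on average, and the lists of other pathways examined had medians between -0.30 and 0.45. No gene of 12789 tested (0%) passed an adjusted p of 0.05 in the edgeR quasi-likelihood test, so every difference below is given as a value that did not pass. The smallest adjusted p in edgeR was 0.327. At an unadjusted p under 0.05 there were 1841 genes (14.4%), against 639 expected by chance. Of these, 822 were higher with statin (6.43% of genes tested) and 1019 were lower (7.97%). The median log2 fold change over all genes was 0.01, and 51.8% of genes were above 0. For no gene were the 10 mice with statin fully separated from the 10 without. Other tools gave other counts on the same question: DESeq2 called 13 genes, limma with sample quality weights 1594, and edgeR with 3 surrogate variables 4.

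The differences ran along the base composition of genes. For each library, the deviation of every gene from its mean over the 20 libraries was correlated with the GC content of the gene's transcripts, across 12600 genes, which are not independent replicates. This GC correlation was above 0 in 10 of 10 libraries with statin (lowest 0.0209, median 0.136, highest 0.287) and in 3 of 10 without it (lowest -0.318, median -0.252, highest 0.312). The difference in means was 0.258 (0.214 without GGOH and 0.301 with GGOH). It had an exact two-sided permutation p of 0.00608 over the 63504 assignments that keep GGOH balanced, and 0.0304 after Benjamini-Hochberg adjustment over the 5 library measures tested. The 3 libraries without statin above 0 were vehicle mice 1 and 3 and GGOH mouse 5. The other measures were the total count, the mitochondrial share, the correlation with transcript length and the number of genes detected, with adjusted p of 0.781, 0.31, 0.454 and 0.071 by the same exact permutation test. Libraries held 8548120 to 18373913 estimated counts (median 15697884.5), and 8.06 to 29.2% of them were mitochondrial. Combination mice 2 and 3 had the highest mitochondrial shares, 27.9 and 29.2%.

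**Figure D1:**
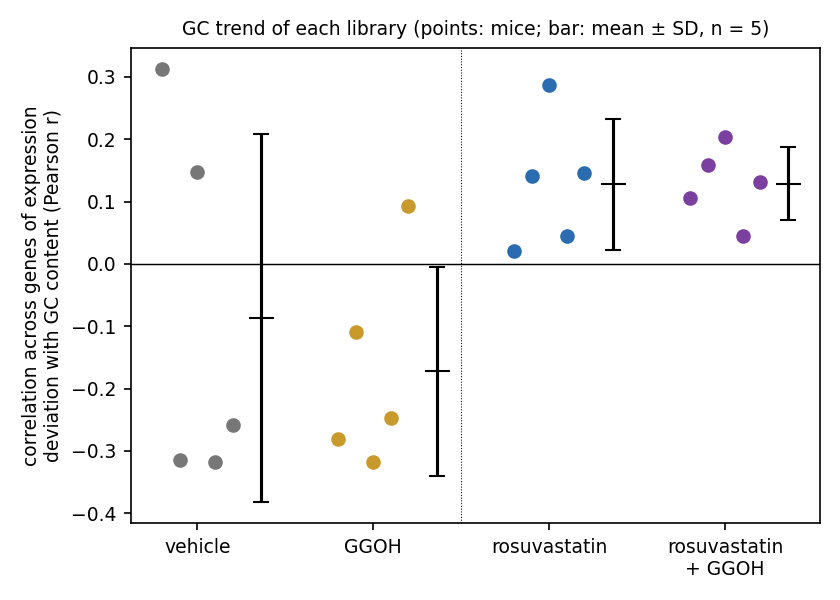
Correlation across genes between a library's deviation in expression and gene GC content (y axis, Pearson r, no unit), by group (x axis); points are mice and bars the mean ± SD of 5. All 10 libraries with rosuvastatin sit between 0.0209 and 0.287, while the libraries without it run from -0.318 to 0.312.

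The fold changes of genes come from the same libraries, so their course with GC content restates this trend and is not separate evidence. Genes were cut into 10 equal bins by GC content. In the bin with the lowest GC content (median 40.4%), the median log2 fold change was -0.205, with 13 genes higher and 309 lower at an unadjusted p under 0.05. In the bin with the highest (median 59.4%), it was 0.272, with 227 higher and 4 lower. Genes higher at that level had a median GC content of 55.6%, those lower 44.4%, and all genes tested 50.3%. A second fit therefore carried an offset per library and gene that removed each library's trend on GC content and transcript length. With these offsets, 0 of 12789 genes passed in edgeR (smallest adjusted p 0.516), and 1209 genes (9.45%) had an unadjusted p under 0.05, 606 higher (4.74%) and 603 lower (4.71%). The medians in the lowest and highest bins became -0.006 and 0.067, a flattening that the offsets were built to give. Both fits gave the same sign to 10574 genes (82.7%), and 797 genes had an unadjusted p under 0.05 in the same direction in both, 446 higher and 351 lower. Whether the GC trend arose in the tissue, the RNA or the libraries was not tested. Values below are given without and with the offsets, in that order, and counts of list members at an unadjusted p under 0.05 stand against these shares of all genes.

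**Figure D2:**
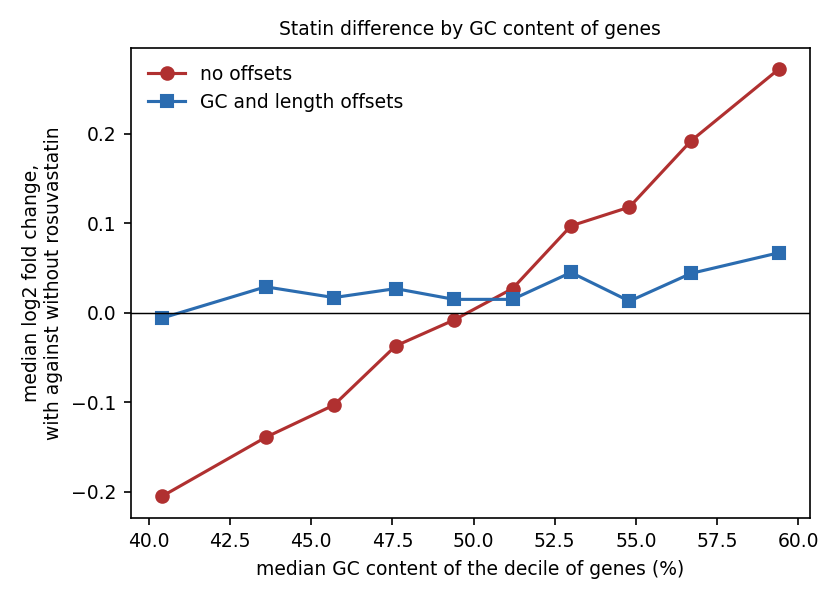
Median log2 fold change with against without rosuvastatin (y axis) in each of 10 bins of genes by GC content (x axis, median GC content in percent), in the fit without offsets (circles) and with GC and length offsets (squares). The medians climb from -0.205 to 0.272 without offsets and stay between -0.006 and 0.067 with them.

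Cholesterol synthesis was examined over 20 genes, all of which were tested. In the fit without offsets 19 of the 20 were higher with statin, 18 of them at an unadjusted p under 0.05, where 6.43% of all genes tested lay. With offsets 20 of 20 were higher, 18 at that level (4.74% of all genes). The median log2 fold change of the list was 0.83 without and 0.84 with offsets, against 0.01 and 0.03 for all genes, of which 54.3% were above 0 with offsets. Its median GC content was 50% and that of all genes tested 50.3%. Next, 3 libraries were left out together: vehicle mouse 1 (GC correlation 0.312) and combination mice 2 and 3 (high mitochondrial share). Vehicle mice 2 and 4 had GC correlations as far from 0, at -0.314 and -0.318, and were kept. Vehicle mouse 1 had the highest GC correlation of all, above those of the statin side. Leaving it out alone raised the genes at an unadjusted p under 0.05 from 1841 to 3797. Without the 3 libraries, 18 members were higher at that level, and 19 with offsets. The mean log2 CPM (counts scaled to library size) over the 20 genes ran from 5.05 to 7.42 with statin (median 6.19) and from 4.66 to 6.19 without (median 5.34). The sides overlapped: 5 of 10 statin mice lay above every mouse without statin, and 3 mice without statin lay below every statin mouse. Of the 10 statin mice, 7 lay above the median without statin. Rosuvastatin mouse 5 (5.33) and combination mice 2 (5.05) and 5 (5.21) lay below it. The list was chosen with earlier results of these livers known, so its direction is not independent evidence.

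Sequence upstream of these genes was examined because most of their mRNAs were higher together and because SREBP-2 and NF-Y act at such sites. It is shown for 3 members, Lss, Mvk and Hmgcs1, which were picked as examples and do not stand for the list. RefSeq (GRCm38.p6) promoter entries were matched by symbol for 15 of the 20 genes, giving 18 promoters, and the 250 bases before each RefSeq start were searched on both strands for CCAAT, the box bound by NF-Y, and for CACCCCAC, the core of a sterol regulatory element. Capitals below mark these matches, and ATTGG is CCAAT on the other strand. Fdps, Fdft1 and Sqle were among the genes with no matched entry.
Lss, chr10:76531355-76531604, plus strand: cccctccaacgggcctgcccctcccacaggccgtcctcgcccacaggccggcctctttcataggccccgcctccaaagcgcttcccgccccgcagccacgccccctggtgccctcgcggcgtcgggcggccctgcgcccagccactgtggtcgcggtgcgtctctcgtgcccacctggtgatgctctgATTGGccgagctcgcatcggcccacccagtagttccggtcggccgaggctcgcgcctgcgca
Mvk, chr5:114444019-114444268, plus strand: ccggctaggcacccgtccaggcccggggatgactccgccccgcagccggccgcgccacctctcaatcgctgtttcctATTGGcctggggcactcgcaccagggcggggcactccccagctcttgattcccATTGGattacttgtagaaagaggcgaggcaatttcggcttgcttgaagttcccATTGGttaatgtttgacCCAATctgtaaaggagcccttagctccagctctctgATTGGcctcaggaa
Hmgcs1, chr13:119690101-119690350, plus strand: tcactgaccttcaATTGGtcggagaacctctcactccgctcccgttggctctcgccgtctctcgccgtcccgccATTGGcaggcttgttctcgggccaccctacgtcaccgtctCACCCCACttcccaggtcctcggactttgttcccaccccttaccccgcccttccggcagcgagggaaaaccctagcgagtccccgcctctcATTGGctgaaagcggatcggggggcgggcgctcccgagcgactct
The Hmgcs1 window held 3 CCAAT boxes and 1 sterol element core, the Mvk window 5 CCAAT boxes and 0 cores, and the Lss window 1 CCAAT box. The GENCODE annotation starts some genes elsewhere: 11 of the 18 windows overlap the annotated span of their gene, that of Lss by its last 17 bases, and those of Mvk and Hmgcs1 by none. CCAAT was present in 14 of the 18 promoters (77.8%), those of 14 of the 15 genes, all but Acat2. In all 32851 RefSeq promoter windows of the same length its share was 33.8%. The core CACCCCAC was in 2 of 18 (11.1%; Acat2 and Hmgcs1) against 2.58% of all windows. The full sterol regulatory element, a longer string that ends in this core, was also searched for. It was in 0 of the 18 promoters and in 24 of the 32851 windows (0.0731%). A match is a string of letters and was not tested for binding, and a missing match says only that these letters are not in this window.

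The first steps of the pathway build farnesyl diphosphate. All 8 genes of this stretch were higher in both fits and all 8 had an unadjusted p under 0.05 in both, with a median log2 fold change of 0.97 without and 0.98 with offsets. Idi1, isopentenyl diphosphate isomerase (chromosome 13, 8885501 to 8892451, GRCm38), ran from 86.8 to 886 CPM with statin (median 302) and from 55.3 to 478 without (median 147). The high value without statin was vehicle mouse 2, and the other 9 mice without statin were at 177 or below. Idi1 has a low GC content (40.8%), and its log2 fold change was larger with offsets, 1.41 ± 0.38 (SE; unadjusted p 0.00126), than without, 1.13 ± 0.39 (p 0.00785). Mvd, mevalonate diphosphate decarboxylase, has a high GC content (59.2%) and the opposite pattern, 1.37 ± 0.39 without and 1.12 ± 0.39 with offsets. Mvd had 4.43, 16.2 and 46.3 CPM (lowest, median, highest) with statin and 2.15, 5.61 and 17.3 without, with 5 statin mice above all without.

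Fdps makes farnesyl diphosphate, the branch point (chromosome 3, 89093588 to 89101959). It had 25.3, 73.5 and 252 CPM with statin and 15.5, 30.7 and 72.7 without. Here 5 statin mice exceeded every mouse without statin and 4 mice without statin fell below every statin mouse. The log2 fold change was 1.23 ± 0.36 (unadjusted p 0.0025), or 1.20 ± 0.35 with offsets. Hmgcs1, the synthase of the second step, had a log2 fold change of 0.72 ± 0.30 (0.86 ± 0.30 with offsets). The kinases Mvk and Pmvk had 0.90 ± 0.30 and 0.62 ± 0.22 (0.73 and 0.48 with offsets). Acat2, the thiolase of the first step, had the smallest difference of the 8, 0.45 ± 0.19 (0.43 ± 0.19 with offsets).

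From squalene onward, 11 of 12 genes were higher without offsets and 12 of 12 with them, 10 at an unadjusted p under 0.05 in each fit, with medians of 0.75 and 0.82. Lss, lanosterol synthase (chromosome 10, 76531588 to 76557138), had the smallest p of the 20 genes in both fits. It had 7.95, 24.5 and 77.3 CPM with statin and 5.44, 10.7 and 23.2 without. In 6 of 10 statin mice Lss was above every mouse without statin, rosuvastatin mouse 3 being the highest at 77.3, and rosuvastatin mouse 5 and combination mice 2, 4 and 5 lay within the range of the other side. Its log2 fold change was 1.23 ± 0.32 (unadjusted p 0.000863), a 2.34-fold difference, and 1.15 ± 0.30 (p 0.000949) with offsets. Leaving out rosuvastatin mouse 3 gave 0.98.

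Dhcr7, which makes cholesterol from its last precursor in one branch, had 12.7, 28.0 and 85.8 CPM with statin and 7.54, 13.1 and 33.0 without. The sides overlapped and the log2 fold change was 1.01 ± 0.29 (unadjusted p 0.00193), 1.00 ± 0.28 with offsets. Sqle (squalene epoxidase), Cyp51 (lanosterol demethylase) and Msmo1 (the C4 methyl oxidase) had 1.05 ± 0.43, 1.03 ± 0.35 and 0.90 ± 0.32 (1.04, 1.11 and 1.07 with offsets). Fdft1, Nsdhl, Hsd17b7 and Tm7sf2, which make squalene and trim lanosterol, had 0.75, 0.69, 0.75 and 0.64 (0.70, 0.81, 0.82 and 0.50 with offsets).

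The last enzymes of the list differed from the rest in size. Ebp, the sterol isomerase, had 99.1, 155 and 185 CPM with statin and 109, 146 and 195 without, and its log2 fold change was -0.03 ± 0.14 (0.03 ± 0.12 with offsets), a sign that depended on the setting. Sc5d, the C5 desaturase, had 0.24 ± 0.16 (unadjusted p 0.151), and 0.37 ± 0.16 (p 0.0264) with offsets. On the per-length scale of TPM (abundance scaled for transcript length and library size), Sc5d and Ebp had the highest levels of the 20 genes in mice without statin, with medians of 138 and 94.0 TPM, whereas Mvd and Lss had the lowest, 2.98 and 3.02.

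**Figure D3:**
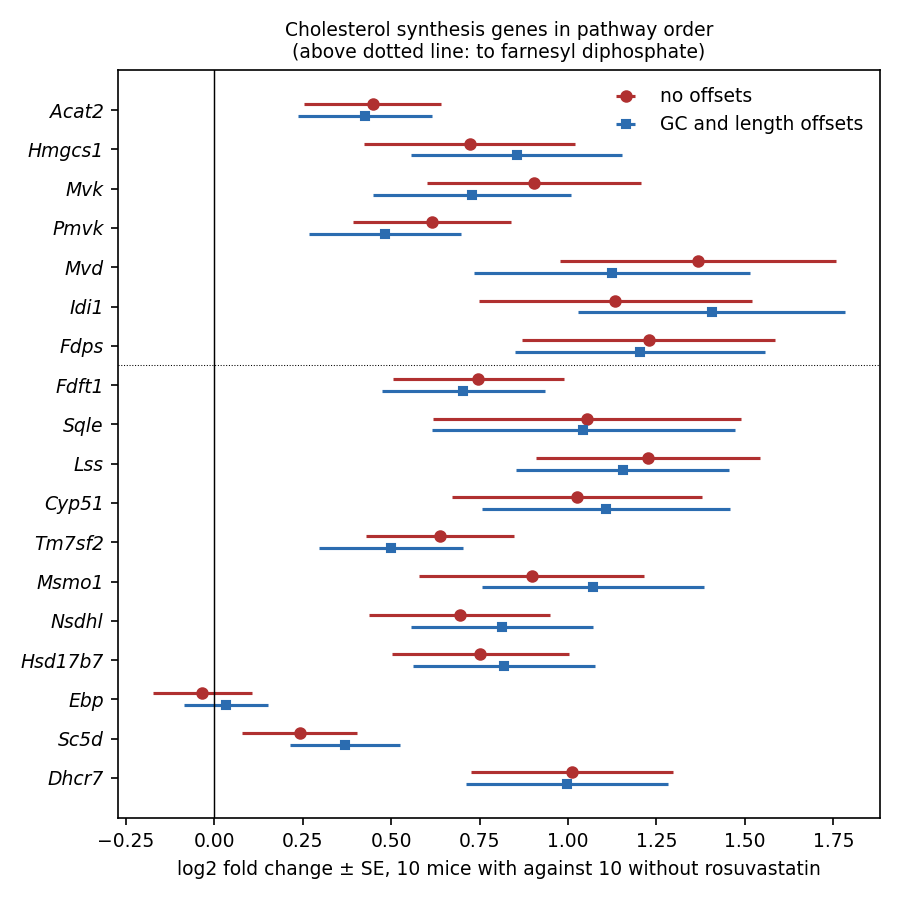
Log2 fold change ± SE (x axis) of 18 cholesterol synthesis genes in pathway order (y axis), 10 mice with against 10 without rosuvastatin, without offsets (circles) and with GC and length offsets (squares). Of these 18 genes only Ebp lies below 0, at -0.03 without offsets, and Mvd (1.37) and Idi1 (1.41 with offsets) lie farthest right.

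Genes that sense sterols or take up LDL differed less. Of 15 tested, 12 were higher in each fit, with a median of 0.25 without and 0.22 with offsets (0.058 with surrogate variables). At an unadjusted p under 0.05 there were 3 higher without offsets, Insig1 among them, and 2 with them (Insig1 and Stard4), and none lower. Insig1, the retention protein of SREBP, had 88.5, 179 and 316 CPM with statin and 72.5, 117 and 283 without. The sides overlapped over most of their range, and the log2 fold change was 0.53 ± 0.23 (unadjusted p 0.0309), or 0.64 ± 0.22 (p 0.00857) with offsets. Srebf2 had 0.36 ± 0.18 (p 0.0539), and 0.14 ± 0.14 (p 0.302) with offsets.

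**Figure D4:**
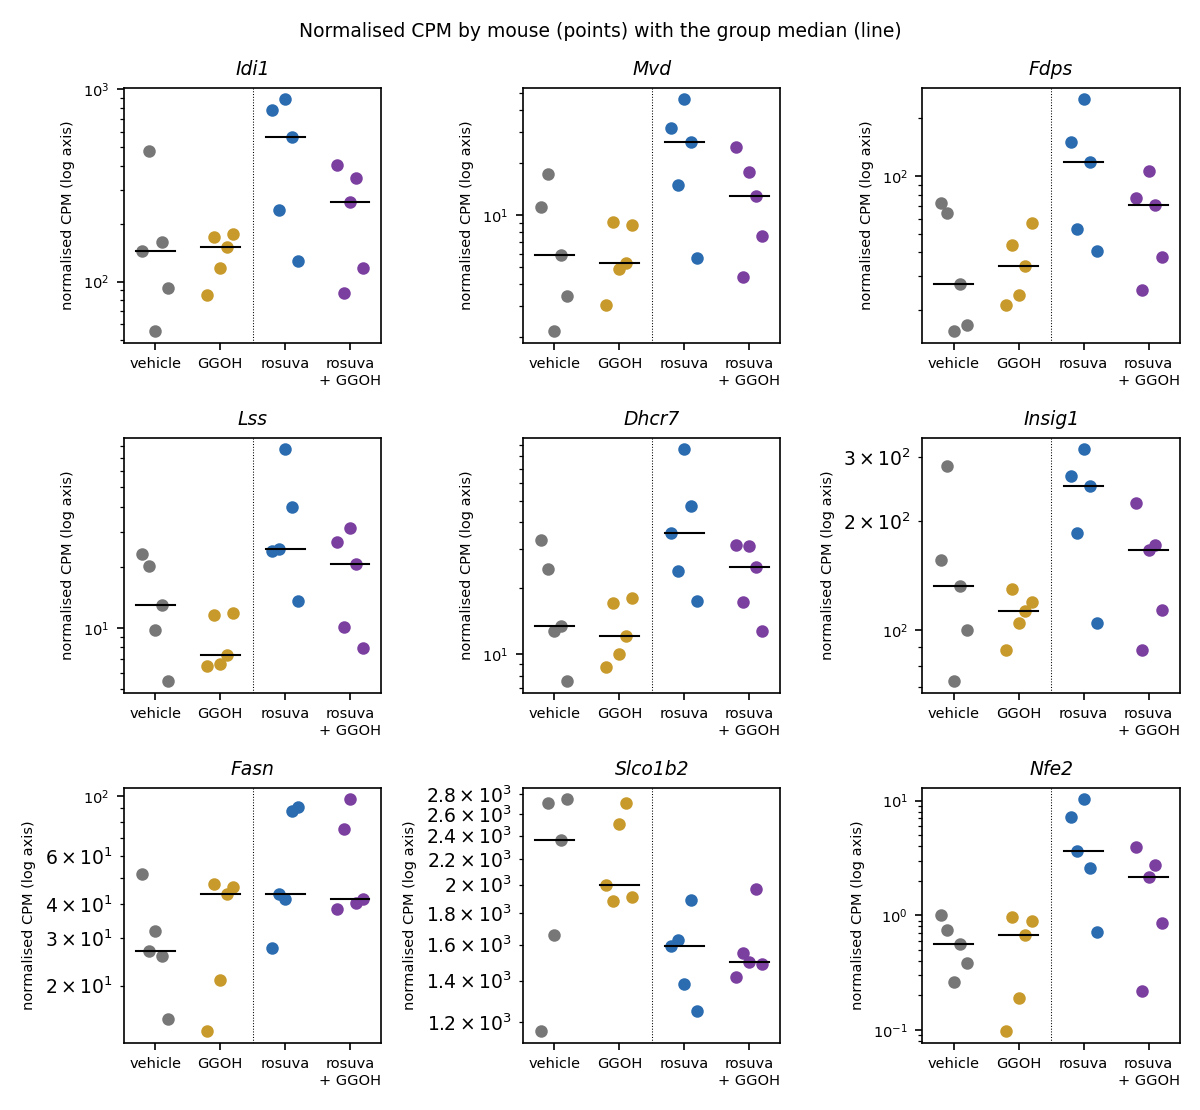
Normalised CPM (y axes, log scale) of 9 genes in each mouse, by group (x axes); points are mice and lines group medians, with the groups without rosuvastatin left of the dotted line. The sides overlap in all 9 panels; Nfe2 has 7 of 10 statin mice above every mouse without statin and Slco1b2 none.

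The branch toward geranylgeranyl groups gave small differences that depended on the offsets. Of 17 genes of prenylation, ubiquinone and dolichol synthesis, 7 were higher and 10 lower without offsets (median -0.04), against 9 and 8 with them (median 0.06). At an unadjusted p under 0.05, 5 were lower (Ggps1, Fnta, Chm, Pdss1 and Pdss2) and 1 higher (Icmt) without offsets, where 7.97% of all genes were lower and 6.43% higher. With offsets Pdss2 was lower and Icmt higher, near the shares of all genes (4.71 and 4.74%). Ggps1, which makes geranylgeranyl diphosphate, had 8.96, 13.7 and 16.9 CPM with statin and 8.20, 17.2 and 22.0 without. Vehicle mouse 1 was the lowest of all, and apart from it the lowest mouse without statin had 14.1 CPM. For Ggps1 the log2 fold change was -0.32 ± 0.14 (unadjusted p 0.0348), and -0.14 ± 0.12 (p 0.232) with offsets. Pdss2, a subunit of the synthase of the ubiquinone side chain, had -0.34 ± 0.12 (p 0.0118), and -0.30 ± 0.11 (p 0.0146) with offsets. Chm, an escort protein for Rab prenylation, and Fnta, the alpha subunit shared by 2 prenyl transferases, had -0.26 each, and -0.09 and -0.08 with offsets.

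Fatty acid and triglyceride synthesis, driven in liver by SREBP-1c and ChREBP, was higher in 17 of 18 genes without offsets (median 0.29) and in 14 of 18 with them (median 0.23), where 51.8 and 54.3% of all genes were above 0. With surrogate variables the median was 0.12. At an unadjusted p under 0.05 there were 6 higher (Fasn, Acss2, Acaca, Acacb, Mlxipl and Dgat1) and 3 with offsets (Fasn, Acss2 and Acaca), against 6.43 and 4.74% of all genes, with none lower. Fasn, the fatty acid synthase, had 27.5, 42.6 and 97.4 CPM with statin and 13.6, 29.3 and 51.6 without. In 4 statin mice Fasn was above every mouse without statin, and 5 mice without statin were below every statin mouse. The difference for Fasn was 0.86 ± 0.28 in log2 (unadjusted p 0.00586), or 0.72 ± 0.26 (p 0.0117) with offsets.

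Acss2, which makes acetyl-CoA from acetate, had 49.1, 56.3 and 85.7 CPM with statin and 23.8, 44.3 and 68.1 without. For this gene 7 mice without statin lay below every statin mouse, and the log2 fold change was 0.45 ± 0.16 (unadjusted p 0.00904), or 0.41 ± 0.15 with offsets. Acaca, the acetyl-CoA carboxylase of the cytosol, had 0.67 ± 0.30 (0.73 ± 0.33 with offsets). Mlxipl, which encodes ChREBP, had 0.54 ± 0.24, and 0.24 ± 0.22 with offsets, and its sign turned in the fit with offsets when the same 3 libraries were left out (-0.131). Scd1, the stearoyl-CoA desaturase, had 0.06 and -0.06 in the fits.

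Transporters and bile acid enzymes included some of the lower genes. Slco1b2 encodes the main uptake transporter of statins in mouse hepatocytes (chromosome 6, 141629518 to 141686646) and has a low GC content, 36.3%. It had 1250, 1530 and 1970 CPM with statin and 1160, 2180 and 2750 without. All 10 statin mice were below the median of the mice without statin, but vehicle mouse 1 was the lowest of the 20. The log2 fold change was -0.47 ± 0.15 (unadjusted p 0.00629), and -0.22 ± 0.10 (p 0.0452) with offsets. Its relative Slco1a4 had -0.42 ± 0.20 and -0.28 ± 0.21. Over 9 statin transporters the medians were 0.05 and 0.03, with 2 lower at an unadjusted p under 0.05 without offsets, Slco1b2 and Slco1a4, and 1 with them, Slco1b2.

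Akr1d1, the reductase of the bile acid ring, had 152, 204 and 289 CPM with statin and 179, 320 and 474 without. The sides overlapped, with 2 statin mice below every mouse without statin. For Akr1d1 the log2 fold change was -0.57 ± 0.18 (unadjusted p 0.00398), and -0.39 ± 0.14 (p 0.0124) with offsets. Baat, which joins bile acids to taurine or glycine, had -0.57 ± 0.19 (p 0.00585), and -0.44 ± 0.16 (p 0.0121) with offsets. These were the 2 genes lower at that level among 13 of bile acid synthesis and transport in either fit; Abcb4, the phospholipid exporter, was higher at that level with offsets only (0.34). Cyp7a1, the rate-limiting enzyme of bile acid synthesis, had 0.05 (0.22 with offsets). Of 11 genes of LXR action and cholesterol efflux, Nr1h2, which encodes LXR beta, had 0.46 ± 0.17 (0.28 ± 0.13 with offsets) and Abcg5, part of the sterol exporter, 0.36 ± 0.16 (0.39 ± 0.17), and the medians were 0.15 and 0.08. With offsets, Abca1, the cholesterol exporter to HDL, was also lower at an unadjusted p under 0.05 (-0.31).

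**Figure D5:**
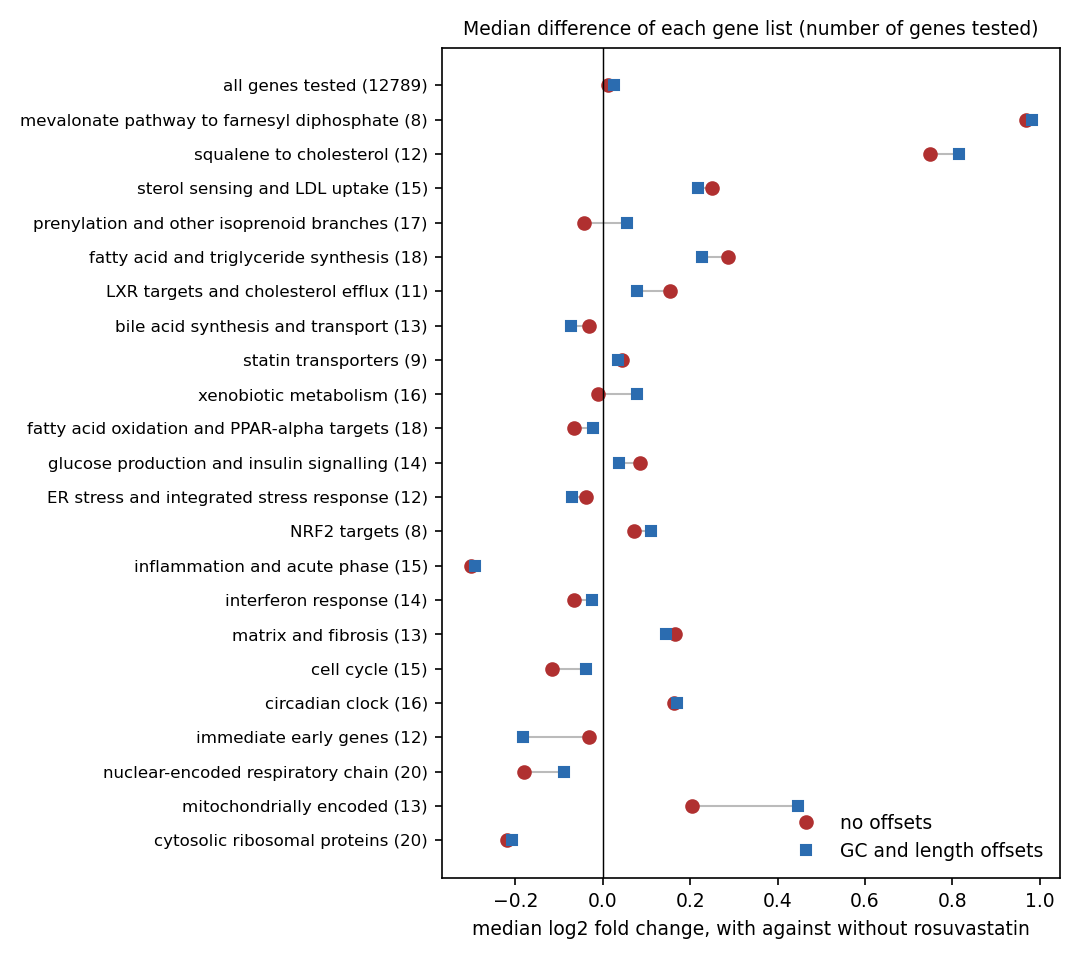
Median log2 fold change with against without rosuvastatin (x axis) of all genes tested and of each gene list (y axis, number of genes tested in brackets), without offsets (circles) and with GC and length offsets (squares). Both cholesterol lists lie between 0.75 and 0.98, and the other lists between -0.30 and 0.45.

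Among 16 genes of xenobiotic metabolism the medians were -0.01 and 0.08, and 3 glutathione transferases stood at the upper end. Gsta1 ran from 2.72 to 38.9 CPM with statin (median 11.7) and from 1.69 to 13.8 without (median 5.51), with 5 statin mice above every mouse without statin. The difference for Gsta1 was 1.43 ± 0.46 in log2 (unadjusted p 0.00565), or 1.58 ± 0.47 (p 0.00268) with offsets. Gstm1 had 328, 632 and 1010 CPM with statin and 169, 408 and 681 without, and a log2 fold change of 0.76 ± 0.26 (0.73 ± 0.26 with offsets). Gstm3 had 0.91 ± 0.47 (unadjusted p 0.067), and 0.90 ± 0.47 with offsets. They belong to families of near-identical genes, and estimated counts may divide reads among copies wrongly. Cyp3a13 was lower at an unadjusted p under 0.05 without offsets (-0.43) and Por, the P450 reductase, with them (-0.36).

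Inflammation and acute phase genes were mostly lower: 13 of 15 without offsets (median -0.30) and 12 of 15 with them (median -0.29). Without GGOH 6 of 15 were higher (median -0.16) and with GGOH 0 of 15 (median -0.50), a difference not tested for the list. The median over both levels was -0.15 without vehicle mouse 2 and -0.18 without GGOH mouse 2, and ran from -0.41 to -0.10 over the alternatives that keep every library or drop 3. At an unadjusted p under 0.05, Saa1 and Cxcl1 were lower without offsets, and Saa1, Nfkbia and Socs3 with them. Saa1, serum amyloid A, spread widely: 52.5, 126 and 1430 CPM with statin and 50.9, 319 and 9220 without. Vehicle mouse 2 was the mouse at 9220, rosuvastatin mouse 3 the mouse at 1430, and the sides overlapped. The log2 fold change of Saa1 was -1.70 ± 0.65 (unadjusted p 0.0156), and -1.79 ± 0.64 with offsets. Without vehicle mouse 2 it was -0.81 (p 0.147), and without rosuvastatin mouse 3 it was -2.49. Cxcl1, a chemokine for neutrophils, had -1.17 ± 0.51 and, without GGOH mouse 1, -0.49. Saa1 and its copy Saa2 share reads, so the value of each is uncertain.

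Energy metabolism gave small shifts. Of 18 genes of fatty acid oxidation, 4 were lower at an unadjusted p under 0.05 (Ehhadh, Acadl, Acadm and Vnn1) and none higher, with a median of -0.07, where 7.97% of all genes were lower; with offsets 2 were lower (Ehhadh and Angptl4; 4.71% of all genes), with a median of -0.02, and the median was 0.07 on log2(TPM + 1). Ehhadh, an enzyme of peroxisomal oxidation, had 278, 345 and 467 CPM with statin and 291, 381 and 766 without, with 3 statin mice below all without. Its log2 fold change was -0.43 ± 0.17, and -0.44 ± 0.18 with offsets. Nuclear genes of the respiratory chain were lower in 19 of 20 (median -0.18), in 16 of 20 with offsets (median -0.09), and had a median of 0.02 with surrogate variables. Uqcrc2, a core subunit of complex III, had -0.40 ± 0.15 and -0.25 ± 0.11.

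The 13 mitochondrially encoded genes had a median of 0.21 (11 of 13 higher) without offsets and 0.45 (13 of 13) with offsets. Without GGOH the median was -0.20 and with GGOH 0.63, and leaving out the same 3 libraries it was -0.11. mt-Co1, a subunit of cytochrome oxidase, had 0.34 ± 0.22, and 0.57 ± 0.23 with offsets. Ppargc1a, the coactivator of mitochondrial genes, had 3.57, 5.11 and 8.90 CPM with statin and 4.88, 7.23 and 9.57 without, with 4 statin mice below every mouse without statin. Its log2 fold change was -0.37 ± 0.17 (unadjusted p 0.0379), and -0.40 ± 0.15 (p 0.0120) with offsets. It was lower in 14 genes of glucose production and insulin signalling in which Irs2 (0.48 ± 0.21) and Akt2 (0.26) were higher at an unadjusted p under 0.05 without offsets and neither with them. G6pc, the last enzyme of glucose production, had 0.07 and 0.09.

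Marker genes were used to look at the cells in the tissue; in bulk RNA, fewer cells of a type and less RNA per cell cannot be told apart. The livers carried hepatocyte transcripts at high levels: the 7 hepatocyte markers summed to 46900 to 86900 CPM with statin and 62200 to 94600 without, with a median difference of -0.18 (-0.03 with offsets) and none at an unadjusted p under 0.05. None of 5 pancreatic acinar markers passed the low-count filter, and 1 of 5 adipocyte and 1 of 5 skeletal muscle markers did. All 6 T cell markers were higher in both fits, with medians of 0.59 and 0.60 and 2 at an unadjusted p under 0.05 in each, at low levels. Their sum was 4.70 to 10.4 CPM with statin (median 5.88) and 2.73 to 7.61 without (median 3.31). Lck, a kinase of the T cell receptor, had 0.602, 1.54 and 2.72 CPM with statin and 0.395, 0.872 and 1.58 without, with 5 statin mice above all without, and a log2 fold change of 0.69 ± 0.29 (0.60 ± 0.29 with offsets). Cd3e, a chain of the receptor complex, had 0.84 ± 0.39 (0.88 ± 0.39 with offsets). Without rosuvastatin mouse 3, Lck and Cd3e had 0.58 and 0.69 without offsets (unadjusted p 0.0631 and 0.0996 in edgeR). Without offsets, 6 of the 6 markers were higher in mice without GGOH and 5 of 6 in mice with GGOH.

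Of 7 markers of sinusoidal endothelium, 6 were higher without offsets and 5 with them. The scavenger receptors Stab2 and Stab1 and the liver protein Oit3 made up the 3 at an unadjusted p under 0.05 without offsets, with 0.52 ± 0.19, 0.53 ± 0.22 and 0.35 ± 0.13. With offsets they had 0.56 ± 0.21, 0.43 ± 0.22 and 0.31 ± 0.12, and Stab2 and Oit3 were at that level. Combination mice 2 and 3 had the highest values of Stab2 (39.8 and 33.3 CPM) and Stab1 (27.9 and 26.5 CPM). Stab2 and Stab1 had 0.20 and 0.16 without GGOH, and 0.83 and 0.90 with GGOH. Without combination mouse 2 they had 0.40 and 0.41 (unadjusted p 0.0359 and 0.0747 in edgeR). Clec4g and Kdr, also on the list, had -0.04 and 0.04 without offsets. The 7 Kupffer cell markers had medians of -0.07 in both fits, the 5 tested neutrophil markers -0.16 and -0.27, and the 6 stellate cell markers -0.06 and -0.12. Whether the mix of cells had a part in any gene difference was not tested.

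Beyond the lists, the genes with the smallest p-values were led by Nfe2 in the fit without offsets. Nfe2 encodes the transcription factor NF-E2 of megakaryocytes and red cell precursors (chromosome 15, 103248212 to 103258403). It had 0.219, 2.65 and 10.3 CPM with statin and 0.0976, 0.620 and 1.00 without. In 7 of 10 statin mice Nfe2 exceeded every mouse without statin; combination mouse 2, rosuvastatin mouse 5 and combination mouse 5 did not. The log2 fold change was 2.35 ± 0.49 (unadjusted p 0.000102), a 5.08-fold difference, and 2.32 ± 0.48 (p 8.98e-05) with offsets. The other platelet markers tested, Pf4 and Itga2b, had 0.22 and -0.17 (0.42 and -0.30 with offsets), and the 6 erythroid markers had a median of -0.11 (-0.10 with offsets).

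Other genes higher with statin with small p-values in the fit without offsets were Olfr1033 (0.61 ± 0.14), Ptov1 (0.49 ± 0.12), Rgl2 (0.70 ± 0.18) and Josd2 (0.57 ± 0.14). The last 3 have GC contents from 59.5 to 60.7%, and with offsets their log2 fold changes were 0.31, 0.49 and 0.35. For Ptov1, 9 mice without statin were below every statin mouse. Srp54b, a subunit of the signal recognition particle and a member of a set of near-identical genes, had the smallest p with offsets, 1.13 ± 0.23 (unadjusted p 7.86e-05), and 0.78 ± 0.26 (p 0.00621) without. Flywch1 also had a small p with offsets, 0.42 ± 0.11.

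Lower genes with the smallest p-values without offsets included Brix1 and Rpf1, factors of ribosome assembly, Zbtb33 and Ttc30b. Brix1, Rpf1 and Zbtb33 have GC contents from 41.1 to 41.7%. Brix1 had -0.47 ± 0.11 (unadjusted p 0.000368) without offsets and -0.14 ± 0.11 (p 0.231) with them. Rpf1 went from -0.48 to -0.21 and Zbtb33 from -0.35 to -0.19. For Ttc30b the values were -0.58 and -0.53.

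With offsets the smallest p-values among lower genes were those of F5 (coagulation factor V), Scarb2 (a lysosomal membrane receptor), Bloc1s4, Sec24a (a coat protein of vesicles leaving the endoplasmic reticulum) and Cfhr4. Scarb2 had 101, 112 and 136 CPM with statin and 124, 136 and 166 without. In 9 of 10 statin mice Scarb2 was below every mouse without statin. The difference for Scarb2 was -0.28 ± 0.08 in log2 (unadjusted p 0.00209), and -0.39 ± 0.10 (p 0.00111) with offsets. Sec24a had 39.3, 56.2 and 75.8 CPM with statin and 57.7, 77.1 and 122 without, with 6 statin mice below all without, and log2 fold changes of -0.46 ± 0.15 and -0.57 ± 0.16. F5 had -0.30 ± 0.14 and -0.44 ± 0.11. Cfhr4 was not matched to the annotation and so carried no offset.

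The difference was then looked at within each level of GGOH. Without GGOH, 0 of 12789 genes (0%) passed an adjusted p of 0.05 in edgeR (smallest 0.973) and 472 had an unadjusted p under 0.05 (3.69%); with GGOH, 0 passed (smallest 0.348) and 1788 had an unadjusted p under 0.05 (14.0%). With offsets 0 passed at either level, and 460 (3.60%) and 1335 (10.4%) had an unadjusted p under 0.05. In both fits the count without GGOH lay below the 639 expected by chance and the count with GGOH above it. Such counts depend on the spread between libraries and do not measure the size of the statin effect. The test of the difference between levels, the interaction, gave 0 genes in edgeR (smallest adjusted p 0.999) and 369 at an unadjusted p under 0.05 (2.89%), fewer than the 639 expected by chance.

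The 20 cholesterol synthesis genes had a median of 1.11 without GGOH and 0.58 with it (1.13 and 0.61 with offsets), with 19 of 20 higher at each level, where 47.3 and 50.9% of all genes were above 0 (20 of 20 with offsets, against 49.3 and 52.5%). Their mean log2 CPM was 5.43 in vehicle mice and 6.45 in rosuvastatin mice, and it was 5.30 in GGOH mice and 5.80 in combination mice. Lss had group means (± SD, n = 5) of 14.3 ± 7.32 CPM in vehicle and 35.9 ± 24.9 in rosuvastatin mice, and of 8.77 ± 2.72 in GGOH and 19.4 ± 10.2 in combination mice. Its log2 fold change was 1.32 without GGOH and 1.13 with GGOH, and their difference was -0.19 ± 0.63 (unadjusted interaction p 0.76). For Fdps the values were 1.64 and 0.81, with a difference of -0.83 ± 0.71 (p 0.253). No member of the cholesterol list had an interaction p under 0.05.

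A few named genes differed more between the levels, none past the adjusted threshold in edgeR. Prg4, the lubricant proteoglycan 4, had a log2 fold change of -1.59 without GGOH and 0.12 with it, an interaction of 1.70 ± 0.49 (unadjusted p 0.00237, adjusted p 0.999 in edgeR). Group means of Prg4 (± SD, n = 5) were 50.6 ± 36.5 CPM in vehicle and 16.8 ± 5.64 in rosuvastatin mice, and 19.6 ± 2.61 in GGOH and 21.2 ± 7.32 in combination mice. Vehicle mouse 2 had 109 CPM. The averaged effect on Prg4 was -0.74 ± 0.25, and -0.48 without that mouse. Irs2, the insulin receptor substrate, had -0.04 without GGOH and 1.01 with it (interaction 1.04 ± 0.42, unadjusted p 0.0221). For Mlxipl these were 0.01 and 1.07 (1.06 ± 0.48, p 0.0397). Combination mice 2 and 3 had 235 and 260 CPM of Mlxipl, the other combination mice 64.8 to 109, and GGOH mice 58.9 to 103. Averaged over GGOH, Irs2 had 0.48 without offsets and 0.19 with them, and Mlxipl 0.54 and 0.24. Cyp2b10, a P450 induced by drugs, had 0.04 and 1.27 (1.22 ± 0.71, p 0.0976), at mean levels of 0.713 ± 0.443 CPM in vehicle, 0.752 ± 0.569 in rosuvastatin, 2.48 ± 1.36 in GGOH and 6.04 ± 2.36 in combination mice (SD). Cyp2b10 shares sequence with other Cyp2b genes, so its reads are uncertain.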

How the data were processed

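Poly(A) RNA of 20 livers was sequenced as paired reads of 100 bases, per the labels' protocols. Of tools, the submitters' processing notes name bcl2fastq 2.19, kallisto 0.44.0 and, with neither version nor role, DESeq2; the build is GRCm38. The authors deposited a table of estimated counts per gene, already whole numbers, and a table of TPM, scaled for transcript length and depth by kallisto per the submitters' processing notes. Estimation divides reads among near-identical copies, and the counting is not stated to use strand, so overlapping antisense genes cannot be told apart. The entry without a gene name (0.00801 to 0.0157% of a library) was left out.

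The test was edgeR (4.0.16, R 4.3.3) quasi-likelihood F, after filterByExpr by group (12789 genes kept) and TMM scaling, with 4 group means over 20 libraries, the statin contrast averaged over GGOH, and Benjamini-Hochberg adjustment at 0.05. Fold changes are on the log2 scale, and SE is derived from the F statistic. Values per mouse are normalised CPM. The second fit used offsets from natural splines (5 degrees of freedom) of each library's log2 CPM (prior count 2) on GC content and log2 length of GENCODE transcripts of GRCm38, available for 98.5% of genes tested. Matching 34933 named entries by name gave GC content for 97.9%. Positions are from the same annotation. The code was tested on simulated data.

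The comparison, gene lists and marker lists were chosen with earlier results of these data known. Named genes are the cholesterol synthesis list and a set of sterol, isoprenoid and glucose genes; the 5 smallest p-values in each direction of each fit among genes that have an assigned name and average log2 CPM 1 or more; and up to 4 members of each list with the smallest p-values. Pdss1, Icmt, Stard4, Acacb, Dgat1, Abca1, Por, Angptl4, Nfkbia and Socs3 were named after their values were seen. Some genes that this rule selects are not reported here. Alternatives tried were other offsets, RLE size factors, DESeq2 1.42.0, other filters, an additive model, the replicate number as a block, limma 3.58.1 with quality weights or on TPM after log2 with pseudocounts of 1 and 0.1, surrogate variables (sva 3.50.0), mitochondrial genes left out, and libraries left out. Quality weights with offsets and DESeq2 with offsets were added after seeing the data.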

Additional observations from a re-analysis of the deposited data

Results flagged for a closer look

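Each group of 10 mice was searched for a mouse far from the other 9, over 80 genes and the library measures. Of 172 groups examined, 4 held such a mouse, where chance would give about 8.6 (about 1 group in 20, or 0.05). Among mice without statin, vehicle mouse 1 had 8.2 CPM of Ggps1 against 14.1 to 22 in the others. Among mice with statin, rosuvastatin mouse 3 had 1430 CPM of Saa1 against 52.5 to 196, and combination mouse 2 had 7.82 CPM of Hgf, the hepatocyte growth factor, against 10.8 to 14.7. The library of combination mouse 3 had a total count of 8548120 against 14735780 to 17864456 in the other libraries with statin.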

How the results depend on the processing

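Over 60 alternatives, 77 of the 80 genes examined and 19 of the 20 cholesterol synthesis genes kept their sign. The cholesterol list kept a median between 0.603 and 0.982 with 13 to 19 members higher at an unadjusted p under 0.05. Most alternatives left out 1 library and so shared nearly all the data. Many of the 80 genes were chosen for small p-values in these data, so kept signs are not independent evidence. The count of genes past an adjusted p of 0.05 was 0 in edgeR and in 56 of the alternatives. It was 13 with DESeq2 (2 higher, Lss and Olfr1033, and 11 lower; 8182 genes had no adjusted p), 1594 with quality weights (764 higher with a median GC content of 55.9%, 830 lower with 43.9%), 4 with surrogate variables, and 2 with DESeq2 and offsets (Nfe2 and Srp54b). With quality weights and offsets together it was 0 (smallest adjusted p 0.124 in limma).

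The 1841 genes at an unadjusted p under 0.05 became 1209 with GC and length offsets, 1192 with the GC offset alone, 907 on log2(TPM + 1), 1047 on log2(TPM + 0.1) and 4240 with quality weights. The split turned from 822 higher and 1019 lower to 718 and 189 on log2(TPM + 1) and 859 and 188 on log2(TPM + 0.1), where the median of all genes shifted by 0.068 and 0.115, to 1361 and 871 with no low-count filter, and to 867 and 696 with surrogate variables. Without GC or length offsets, more genes were higher than lower in 16 of 32 alternatives, single libraries left out included (2079 and 1718 without vehicle 1, 599 and 429 without vehicle 2). Leaving out each library gave 1028 to 3797 genes without offsets and 703 to 2714 with them, with 0 past the adjusted threshold. The count moved by over 1.5 times without vehicle 1 (3797), vehicle 2 (1028), vehicle 5 (1188) or combination 3 (1189), and with offsets, from 1209, without vehicle 1 (2714), vehicle 2 (703), GGOH 4 (765) or combination 3 (759). The cause of these moves was not tested.

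Ebp changed sign from -0.033 to 0.035 with offsets, 0.024 with the replicate block and offsets, 0.084 on both TPM scales, 0.09 with surrogate variables, 0.024 and 0.079 without vehicle 1 and combination 2 and 3 (without and with offsets), 0.024 with DESeq2 and offsets, and over -0.073 to 0.045 (0.001 to 0.109 with offsets) when single libraries were left out. Without those 3 libraries and with offsets, Mlxipl was -0.131 and Chm 0.028. The statin difference in total count ran from -304000 to 1170000 and that in genes detected from 272 to 397 (highest exact permutation p 0.0632) when single libraries were left out.

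The replicate number as a block gave 0 genes past the threshold in edgeR, with or without offsets, and 1710 and 1091 genes at an unadjusted p under 0.05. It left 14 and 13 cholesterol genes at that level. The numbers share no stated source: over 30 pairs of samples with the same number, the correlation of deviations from group means ran from -0.465 to 0.507 (median 0.056) and was over 0.1 in 13, against a median of 0.022 over the other 120 pairs. The block changed no call. Depths of 8548120 to 18373913 counts and 10 mice a side limit what small differences can pass.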

Other observations

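Several further gene groups were measured in the same comparison, none with a gene past the adjusted threshold in edgeR. Cytosolic ribosomal protein genes were lower in 18 of 20 (median -0.22) and in 19 of 20 with offsets (-0.21), none at an unadjusted p under 0.05, and their median was 0.26 with surrogate variables. Circadian clock genes had medians of 0.16 and 0.17 (-0.13 with surrogate variables), and Nr1d2, a repressor of the clock, was the 1 gene of 16 at an unadjusted p under 0.05 without offsets (-0.31 ± 0.12). Cell cycle genes had medians of -0.12 and -0.04; Ccne2, cyclin E2, had 1.56, 2.36 and 3.00 CPM with statin and 1.95, 3.75 and 5.92 without, and a log2 fold change of -0.69 ± 0.21 (-0.35 ± 0.16 with offsets).

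Stress and matrix gene groups lay near the median of all genes. The 12 genes of endoplasmic reticulum and integrated stress had medians of -0.04 and -0.07, the 8 tested NRF2 targets 0.07 and 0.11, the 14 interferon genes -0.07 and -0.03, and the 13 matrix genes 0.17 and 0.15, with none at an unadjusted p under 0.05 in either fit apart from 1 NRF2 target without offsets, Srxn1. Interferon genes were higher in 12 of 14 without GGOH (median 0.15) and in 4 of 14 with GGOH (median -0.21), and Kupffer cell markers in 6 of 7 (median 0.23) and 0 of 7 (median -0.37); these differences between levels of GGOH were not tested as groups. Of 6 stellate cell markers 3 were higher and 3 lower without offsets, and Dcn and Hgf, 2 of the lower ones, were at an unadjusted p under 0.05 without offsets (-0.35 ± 0.15 and -0.33 ± 0.13) and not with them (-0.16 and -0.18). The 12 immediate early genes had medians of -0.03 and -0.18. With offsets 2 of them, Gadd45a (-0.56) and Gadd45g (-0.67), were lower at an unadjusted p under 0.05 (4.71% of all genes). The 4 genes of the mesothelial list had medians of 0.54 and 0.40, with 3 higher and Wt1 lower (-0.96, and -1.01 with offsets). Krt8, 1 of the 3, had 49.8 to 144 CPM. Msln, Upk3b and Wt1 had 2.51 CPM or less in every mouse, so this list says little about mesothelium.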
